A study of Arabidopsis thaliana with 10 samples.

Results

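The comparison set Arabidopsis thaliana seedlings lacking both HDA9 and HOS15 against seedlings lacking HOS15 alone, so the factor that differs is the loss of HDA9 in plants that already carry the hos15-2 allele. The hda9 hos15 double mutant combines the insertion alleles hda9 (SALK_007123) and hos15-2 (SALK_064435). The hos15 single mutant carries hos15-2 only. The hda9 single mutant (SALK_007123), the pwr single mutant (SALK_071811C) and the Columbia-0 wild type (Col) were profiled alongside and are cited where they place a gene. All were whole seedlings, 7 days old, raised on agar (0.8%) with 1/2 MS medium at 23 °C with 16 h of light and 8 h of darkness, and collected 12 h after lights-on (ZT +12). The 2 libraries labelled hda9 hos15 and the 2 labelled hos15 make up 4 of the 10 libraries in the series. These libraries were chosen by genotype label alone, without any expression value.

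HDA9 is a histone deacetylase of the RPD3 type, an enzyme that removes acetyl groups from histone tails and is mostly associated with lower transcription. HOS15 is a WD40-repeat protein related to the repressor subunits that carry such enzymes to chromatin in animals, and PWR is a SANT-domain protein. The design text describes all 3 as proteins that bind one another. Loss of a repressor subunit is therefore usually examined for genes whose transcripts become more abundant, and a second mutation in the same complex for how much further the levels move.

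The deposited table gives a single FPKM (fragments per kilobase, scaled to the library's total) for each gene in each genotype, which the authors made from that genotype's 2 libraries. There is no replicate check on any difference below, no test could be made, and the read depth behind a value is unknown. The comparison covered 18912 of 33297 rows, those that reached 1 FPKM in 2 or more of the 5 genotypes. Differences are of log2(FPKM + 1), so the fold of a weakly expressed gene is understated. The words higher and lower are used of genes whose values differ by 1 or more on that scale (2-fold). FPKM sums were 1177223 in hda9 hos15 and 1142805 in hos15, and the most abundant single row, the non-coding RNA AT2G01021, took 4.59% of the sum in hda9 hos15 and 7.05% in hos15. Whole-seedling identity was borne out by markers of its organs: the summed FPKM of 8 green-leaf markers was 57114 in hda9 hos15 and 50163 in hos15, and that of 10 root markers was 217 in hda9 hos15 and 205 in hos15. Seed and embryo markers summed to 2.52 FPKM over 13 genes in hda9 hos15 and 0.95 in hos15, and flower and pollen markers to 4.14 and 4.96 over 7 genes in the same order. Sums for 8 vasculature markers were 151 in hda9 hos15 and 118 in hos15, of which SUC2 made up 109 and 77.5. In the same order, 7 guard-cell markers summed to 39.4 and 37.4, and 5 trichome markers to 9.85 and 9.89. In whole seedlings, fewer cells of a type and less RNA per cell cannot be told apart.

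The targeted genes were examined first. HDA9 stood at 1.76 FPKM in hda9 hos15 and 10.7 FPKM in hos15, a log2 difference of -2.08, and at 1.70 in hda9, 10.9 in pwr and 7.79 in Col. The double mutant thus carried as little HDA9 transcript as the hda9 single mutant. HOS15 was low in both groups compared, at 1.89 FPKM in hda9 hos15 and 2.16 in hos15, beside 4.37 in hda9, 3.17 in pwr and 16.2 in Col. PWR was at 10.2 FPKM in hda9 hos15 and 12.1 in hos15, a log2 difference of -0.23, and its gene overlaps one on the opposite strand. The genes for the other deacetylases moved little. The 7 other RPD3-type deacetylase genes compared had a median log2 difference of -0.06, with values from -0.13 to 0.10, and the 4 plant-specific HD2-type genes were all above 0, with a median of 0.22.

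More transcripts were lower than higher in hda9 hos15 set against hos15. Of the 18912 rows, 188 were lower in hda9 hos15 than in hos15 (0.994%) and 56 were higher (0.296%), 244 in all (1.29%). The median over all rows was -0.04 and the standard deviation across rows 0.34. Many calls rest on short or weakly measured RNAs: 48 of the 244 rows were listed at 0 in one of the groups, and without them 156 were lower and 40 higher. Within the protein-coding genes whose transcripts reach 300 nt, 141 were lower and 24 higher. The largest differences in both directions belonged to short RNAs and uncharacterized genes, many of them listed at 0 in one group. The lower genes with a symbol included touch- and stress-inducible regulators of transcription, cell wall enzymes and enzymes of hormone synthesis. At the edge of the rule, AT1G50040 (-1.004, 4.08 FPKM in hda9 hos15 and 9.19 in hos15) lay just inside and ERF104, an ethylene-response-factor gene (-0.999, 13.1 and 27.1 FPKM in the same order), just outside.

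**Figure D1:**
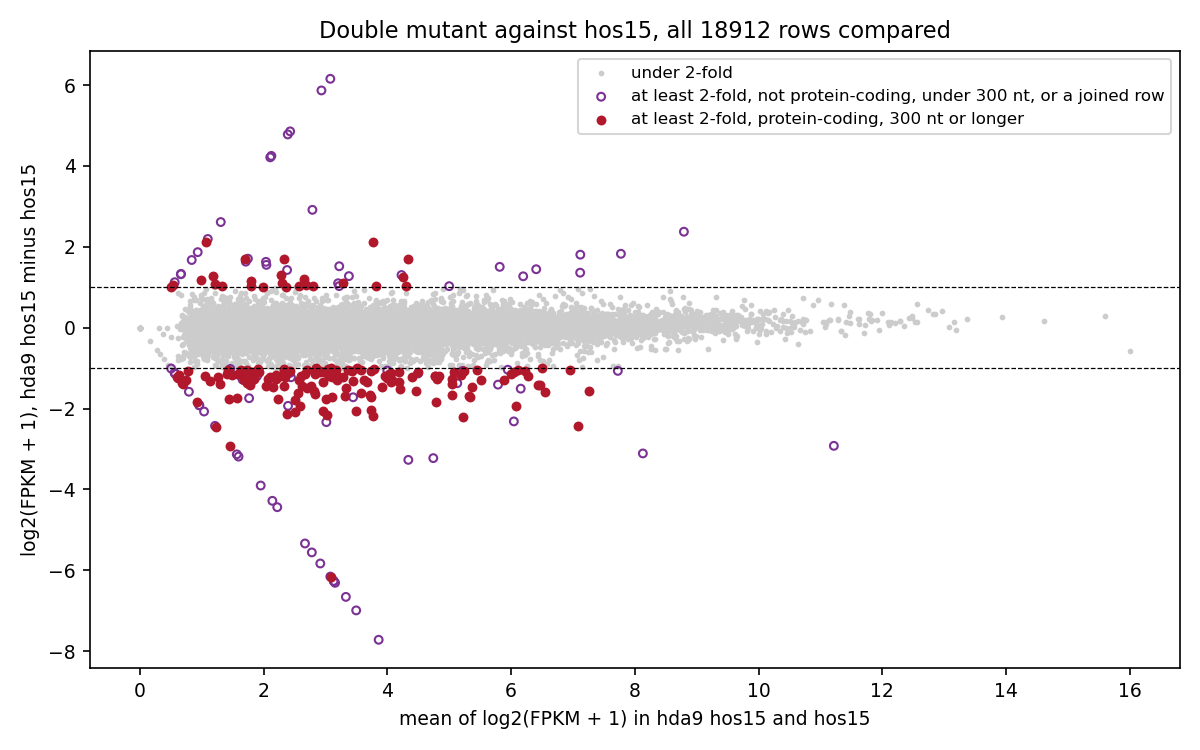
Each of the 18912 rows compared, with the mean of log2(FPKM + 1) in hda9 hos15 and hos15 on the horizontal axis and hda9 hos15 minus hos15 on the vertical axis. Dashed lines mark 2-fold; filled red points are protein-coding genes of at least 300 nt past it (141 below, 24 above), and open purple circles are the other rows past it, which include the largest differences in both directions and the straight streaks of rows listed at 0 in one group.

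The largest fall among protein-coding genes with a symbol was that of TCH4, a touch-inducible xyloglucan endotransglucosylase/hydrolase that remodels cell wall xyloglucan. It stood at 57.0 FPKM in hda9 hos15 and 314 in hos15, beside 269.6 in hda9, 148 in pwr and 117 in Col, a log2 difference of -2.44. The double mutant had the lowest of the 5 values and hos15 the highest. Genes named for a fall were chosen for a low double-mutant and a high hos15 value, which favours such an order. TCH4 leads a list of 15 touch and calcium genes, of which 7 were lower and none higher, where 0.994% of all rows were lower. Like the gene lists below, it was chosen with earlier results of these data known, so its share is a description only. All 15 lay below 0, as did 10978 of the 18912 rows, and the list median was -0.82. PHI-1, a phosphate-responsive gene of the EXORDIUM family, was at 16.5 FPKM in hda9 hos15 and 79.1 in hos15, beside 81.6 in hda9, 78.8 in pwr and 22.4 in Col (-2.20). Its relative EXO, a cell wall protein linked to brassinosteroid-promoted growth, was at 52.7 in hda9 hos15 and 161 in hos15, beside 136 in hda9, 82.8 in pwr and 79.9 in Col (-1.59). TCH3, a calmodulin-like calcium sensor, was at 87.6 in hda9 hos15 and 263 in hos15, beside 275 in hda9, 139 in pwr and 128 in Col (-1.58), and it overlaps genes on the opposite strand. In these genes hos15 and hda9 were both above Col, and hda9 hos15 was below Col. XTR6, another enzyme acting on xyloglucan (-1.62, 5.79 FPKM in hda9 hos15 and 19.8 in hos15), and the calmodulin-like genes CML38 (-1.28, 6.89 and 18.21 in the same order) and CML23 (-1.02, 2.51 and 6.13) complete the 7. TCH2, a further calmodulin-like gene, was at 73.1 FPKM in hda9 hos15 and 128 in hos15 (-0.80), short of 2-fold.

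Rapidly induced stress transcription factors formed the other large group, on a list also chosen with earlier results of these data known. Of 26 compared, 10 were lower and none higher, where 0.994% of all rows were lower; 25 lay below 0 and the median was -0.82. WRKY40, a repressor of defence and abscisic acid responses, stood at 2.83 FPKM in hda9 hos15 and 16.2 in hos15, beside 19.7 in hda9, 5.87 in pwr and 5.14 in Col (-2.17). Its close relative WRKY18 was at 5.52 in hda9 hos15 and 25.95 in hos15, beside 21.7 in hda9, 10.3 in pwr and 16.6 in Col (-2.05). WRKY33, a regulator of resistance to necrotrophic fungi, was at 6.38 in hda9 hos15 and 23.0 in hos15, beside 20.7 in hda9, 7.46 in pwr and 17.65 in Col (-1.70). All 3 had their lowest value in hda9 hos15, which their choice as falling genes favours. WRKY40 and WRKY33 overlap genes on the opposite strand. The ethylene response factor AT5G51190 (ERF105) was at 4.52 in hda9 hos15 and 21.8 in hos15, beside 23.57 in hda9, 8.20 in pwr and 3.86 in Col (-2.05). ERF6, which takes part in growth restraint under stress, was at 21.3 in hda9 hos15 and 71.6 in hos15, beside 105 in hda9, 61.8 in pwr and 18.7 in Col (-1.70). STZ, a zinc-finger repressor of salt and drought responses, was at 28.2 in hda9 hos15 and 70.9 in hos15, beside 105 in hda9, 45.5 in pwr and 12.8 in Col (-1.30). In ERF105, ERF6 and STZ the double mutant stayed above Col, unlike in the WRKY genes. The other lower members were MYB73 (-1.20), MYB51 (-1.20), ERF11 (-1.16) and ERF2 (-1.05). DREB26, an AP2-domain factor outside the list, was at 5.36 in hda9 hos15 and 28.0 in hos15, beside 26.04 in hda9, 16.0 in pwr and 9.12 in Col (-2.19).

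Whole families, taken from the annotated products after values had been seen, put these genes in proportion. Of 68 AP2/ERF genes compared, 11 were lower (16.2%, against 0.994% of all rows), but the family median was -0.07 and 31 members were above 0. Of 50 WRKY genes, 4 were lower (8.00%) and the median was -0.17. Of 65 calcium-binding EF-hand and calmodulin-like genes, 5 were lower (7.69%) and the median was -0.10. The falls in these families therefore sat in a minority of members.

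Of 4 genes for the decay of stress mRNAs, 2 were lower, where 0.994% of all rows were lower. CAF1a, a deadenylase that shortens poly(A) tails, was at 9.95 FPKM in hda9 hos15 and 30.1 in hos15, beside 36.1 in hda9, 26.6 in pwr and 9.09 in Col (-1.50). SZF1, a tandem zinc-finger protein of salt responses, was at 17.5 in hda9 hos15 and 58.2 in hos15, beside 61.9 in hda9, 36.7 in pwr and 17.596 in Col (-1.68). Both double-mutant values lay next to those of Col. The remaining members of the list, CAF1b (-0.74) and CZF1 (-0.67), did not reach 2-fold, and the list median was -1.12. DIC2, a mitochondrial dicarboxylate carrier, had its genotypes in the order of CAF1a, at 21.1 in hda9 hos15 and 70.7 in hos15, beside 83.5 in hda9, 63.9 in pwr and 14.7 in Col (-1.70).

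**Figure D2:**
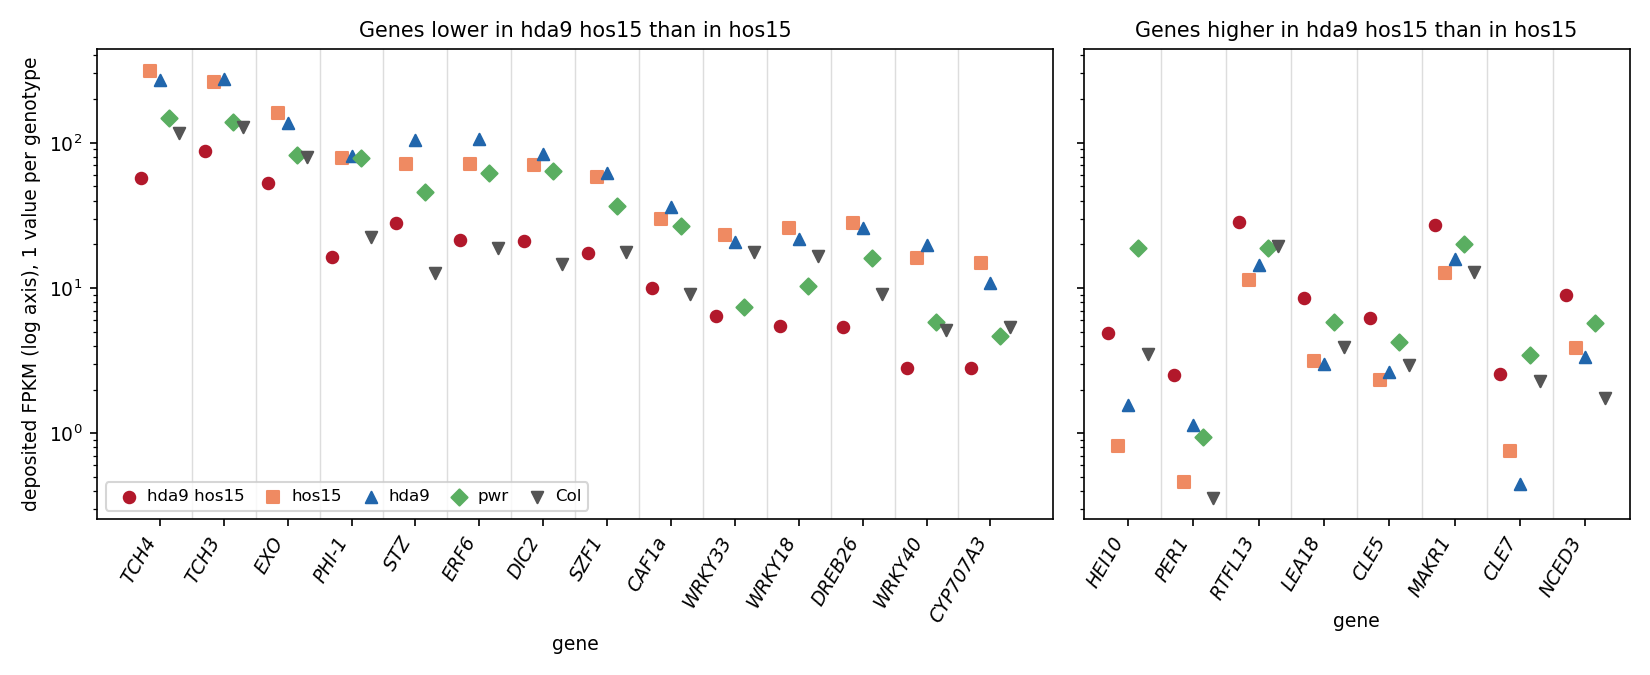
Deposited FPKM (log axis) of 14 genes called lower, left, and of the 8 protein-coding genes with a symbol and at least 2 FPKM in the higher group that were called higher, right, with 1 point per genotype in the order hda9 hos15, hos15, hda9, pwr and Col within each gene. Genes were called on hda9 hos15 against hos15, so the order of circle and square follows from the choice (TCH4, 57.0 against 314 FPKM). The 14 genes on the left were picked by hand from those called lower. HDA9, also called lower, is not shown (1.76 FPKM in hda9 hos15, 1.70 in hda9). In the genes shown, the red circle of hda9 hos15 also lies below the triangle of hda9 on the left (TCH4, 269.6 FPKM) and above it on the right.

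The promoters of the falling genes were read for short words known from stress-inducible plant promoters, in windows from 250 bases before to 50 after each annotated gene start. The sequences are those of RefSeq on TAIR10.1, matched by locus code, since the deposited table holds no coordinates. Windows of 6 genes are printed 5′ to 3′ on the gene's strand, with capitals for CGCGTT (the core bound by calmodulin-binding CAMTA factors) and for the W box (TTGACC or TTGACT, bound by WRKY factors), each on either strand. DIC2, PHI-1 and XTH18 hold both words, SZF1 holds 3 W boxes, TCH4 holds 1, and WRKY40 holds neither and is shown as the counter-example.
DIC2 promoter, chr4:12686209-12686508, + strand: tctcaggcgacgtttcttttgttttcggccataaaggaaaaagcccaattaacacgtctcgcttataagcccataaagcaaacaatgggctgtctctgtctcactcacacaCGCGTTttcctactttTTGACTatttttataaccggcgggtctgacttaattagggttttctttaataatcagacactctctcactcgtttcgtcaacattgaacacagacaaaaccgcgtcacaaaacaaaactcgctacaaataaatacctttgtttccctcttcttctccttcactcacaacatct
PHI-1 promoter, chr1:12851733-12852032, + strand: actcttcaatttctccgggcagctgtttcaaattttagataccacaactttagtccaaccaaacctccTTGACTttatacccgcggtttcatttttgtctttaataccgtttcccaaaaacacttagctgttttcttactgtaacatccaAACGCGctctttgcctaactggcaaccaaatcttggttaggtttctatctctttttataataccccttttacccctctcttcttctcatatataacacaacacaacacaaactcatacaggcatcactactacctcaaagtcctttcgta
XTH18 promoter, chr4:14827162-14827461, - strand: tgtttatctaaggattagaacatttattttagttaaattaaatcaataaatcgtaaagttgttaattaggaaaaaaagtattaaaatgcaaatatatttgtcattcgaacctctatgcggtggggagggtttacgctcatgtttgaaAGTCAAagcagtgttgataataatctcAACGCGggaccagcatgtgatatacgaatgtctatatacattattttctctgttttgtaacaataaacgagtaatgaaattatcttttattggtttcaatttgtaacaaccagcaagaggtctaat
SZF1 promoter, chr3:20775970-20776269, + strand: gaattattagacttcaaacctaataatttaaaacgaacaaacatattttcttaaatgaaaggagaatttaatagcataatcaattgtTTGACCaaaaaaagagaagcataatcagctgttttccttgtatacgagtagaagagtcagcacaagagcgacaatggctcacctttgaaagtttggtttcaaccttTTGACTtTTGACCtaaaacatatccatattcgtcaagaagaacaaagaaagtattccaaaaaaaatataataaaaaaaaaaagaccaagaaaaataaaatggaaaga
TCH4 promoter, chr5:23308631-23308930, - strand: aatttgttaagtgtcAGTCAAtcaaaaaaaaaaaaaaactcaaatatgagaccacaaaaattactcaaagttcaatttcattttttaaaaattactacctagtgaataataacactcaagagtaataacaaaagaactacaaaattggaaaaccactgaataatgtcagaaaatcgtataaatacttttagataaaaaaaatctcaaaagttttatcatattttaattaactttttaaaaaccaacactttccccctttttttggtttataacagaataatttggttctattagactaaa
WRKY40 promoter, chr1:30383311-30383610, + strand: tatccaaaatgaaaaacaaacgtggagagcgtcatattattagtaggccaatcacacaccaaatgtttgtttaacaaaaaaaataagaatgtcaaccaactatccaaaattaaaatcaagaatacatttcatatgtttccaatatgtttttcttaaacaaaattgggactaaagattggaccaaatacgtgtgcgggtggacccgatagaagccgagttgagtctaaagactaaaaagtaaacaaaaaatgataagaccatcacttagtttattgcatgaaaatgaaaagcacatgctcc

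Among the 141 lower protein-coding genes of at least 300 nt, 21 windows held CGCGTT (14.9%), against 1 of the 24 higher genes (4.17%) and 665 of all 18078 such genes with a window (3.68%). The related word ACGCGT, which overlaps CGCGTT where the letters ACGCGTT occur, was in 15 of the 141 (10.6%), 1 of the 24 (4.17%) and 2.32% of all. A W box was in 73 of the 141 (51.8%), 5 of the 24 (20.8%) and 32.8% of all. The G box CACGTG, a word of abscisic acid and light responses, was about as frequent in the lower genes (8.51%) as in all (8.71%). The other words searched, also on both strands, were the cold-response core CCGAC (11.3% of the lower genes and 16.2% of all), the ethylene-response GCC box AGCCGCC (2.84% and 0.813% in the same order) and the evening element AAAATATCT of clock-controlled genes (2.13% and 3.14%). Genes at least 2-fold higher in hda9 than in Col, a comparison that shares no value with this one, held CGCGTT in 8.84% and a W box in 43.9% of 328 windows; 78 of the 328 are among the 141 lower genes, so these shares are not independent of those above. A match is a run of letters, not a bound site. Of the 37 named falling genes with a window, 22 held a W box and 5 held CGCGTT.

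Among 15 ethylene genes, 3 enzymes of its synthesis were lower in the double mutant, where 0.994% of all rows were lower. ACS11, ACS7 and ACS6 encode 1-aminocyclopropane-1-carboxylate synthases, which make the precursor of ethylene. ACS11 was at 3.02 FPKM in hda9 hos15 and 11.6 in hos15, beside 7.42 in hda9, 7.28 in pwr and 1.99 in Col (-1.65). ACS6 was at 8.24 in hda9 hos15 and 18.4 in hos15, beside 21.0 in hda9, 10.5 in pwr and 8.92 in Col (-1.07), and ACS7 at 0.869 in hda9 hos15 and 3.23 in hos15 (-1.18). No gene of the list was higher, and its median was -0.18. Among 21 abscisic acid and drought genes, 1 was lower and 1 higher, and the median was 0.01. CYP707A3, a hydroxylase that breaks abscisic acid down, was at 2.80 in hda9 hos15 and 14.8 in hos15, beside 10.7 in hda9, 4.66 in pwr and 5.36 in Col (-2.06). NCED3, the dioxygenase of the rate-limiting step of its synthesis under drought, was at 8.90 in hda9 hos15 and 3.88 in hos15, beside 3.37 in hda9, 5.71 in pwr and 1.74 in Col (1.02). NCED3 was at 0.93 after adjustment for transcript sequence (described with purine share), short of 2-fold.

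Jasmonate genes gave fewer calls. LOX4, a lipoxygenase of jasmonate synthesis, was at 3.84 FPKM in hda9 hos15 and 11.4 in hos15 (-1.35), and CYP94C1, which oxidises and inactivates jasmonoyl-isoleucine, at 1.41 in hda9 hos15 and 4.17 in hos15 (-1.10). They were the 2 lower members of 14 synthesis and turnover genes with a median of -0.27, where 0.994% of all rows were lower. Of 20 repressor and response genes, JAZ7 (3.096 in hda9 hos15, 11.2 in hos15, -1.57) and NATA1 (0.0320 and 1.34 in the same order, -1.18) were lower, with a median of -0.24. PDF1.2, a defensin gene used as a marker of combined jasmonate and ethylene responses, was at 2.72 in hda9 hos15 and 9.15 in hos15, beside 23.3 in hda9, 8.93 in pwr and 3.63 in Col (-1.45). It was the 1 lower gene among 9 defensins. In the salicylic acid list of 15, CBP60G, a calmodulin-binding activator of salicylic acid synthesis (2.32 in hda9 hos15, 6.75 in hos15, -1.23), and WRKY70, a regulator of the balance between salicylate and jasmonate responses (2.08 and 6.15 in the same order, -1.22), were lower, while the list median was -0.03.

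Immune receptor genes lay below 0, by less than 2-fold in the listed receptors. All 16 NLR genes compared lay below 0, as did 10978 of the 18912 rows, with a median of -0.41, and none was called. After adjustment for transcript sequence the list median was -0.32. The largest differences were in helper receptors: ADR1-L2 was at 13.7 FPKM in hda9 hos15 and 24.9 in hos15 (-0.82), and ADR1-L1 at 21.0 in hda9 hos15 and 34.5 in hos15 (-0.69). A wider annotated class of 100 TIR-domain and NBS-LRR genes was taken after values were seen. Of these, 11 were lower (11%, against 0.994% of all rows), none was higher and 92 lay below 0. The median was -0.30, and -0.21 after adjustment for transcript sequence. The 3 adjacent TIR-domain genes on chromosome 1 named AT1G72900, AT1G72910 and AT1G72920 were all lower (-1.48, -1.78 and -1.77); such neighbours can share reads where their sequences are alike.

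Lists of genes that mark low energy supply and ageing leaves had medians below 0 and few calls. Of 17 sugar and low-energy genes, 3 were lower, where 0.994% of all rows were lower. None was higher and the median was -0.47. ASN1, a dark-induced asparagine synthase, was at 4.60 FPKM in hda9 hos15 and 12.1 in hos15, beside 13.1 in hda9, 7.21 in pwr and 3.28 in Col (-1.22). SEN1, a gene induced in darkness and senescence, was at 23.3 in hda9 hos15 and 53.7 in hos15, beside 58.7 in hda9, 30.9 in pwr and 28.0 in Col (-1.17). EXO, described above, was the third. SEN1 was the 1 lower gene of 14 senescence and chlorophyll-breakdown genes (median -0.34). In the glucosinolate list of 21 genes only the indole-branch members MYB51, a transcriptional activator (9.24 in hda9 hos15, 22.5 in hos15), and CYP81F2, which hydroxylates indole glucosinolates (6.40 and 22.6 in the same order, -1.67), were called, and the list median was 0.11. Of 19 cell wall loosening genes, TCH4 and XTH18 (12.8 in hda9 hos15, 31.0 in hos15, -1.22), both xyloglucan enzymes, were lower and the median was -0.11.

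Few protein-coding genes with a symbol were higher in the double mutant: 8 reached 2 FPKM in hda9 hos15, and 4 of them (CLE5, MAKR1, CLE7 and NCED3) were short of 2-fold after adjustment for transcript sequence, at 0.86, 0.96, 0.94 and 0.93. HEI10, a RING-domain protein of meiotic crossover formation, was at 4.86 FPKM in hda9 hos15 and 0.816 in hos15, beside 1.56 in hda9, 18.8 in pwr and 3.53 in Col (1.69). Its gene overlaps genes on both strands, so its value may hold reads of others. PER1, a peroxiredoxin of seeds, was at 2.53 in hda9 hos15 and 0.460 in hos15 (1.27), and LEA18, a late embryogenesis abundant protein, at 8.55 in hda9 hos15 and 3.14 in hos15 (1.21). Beside these, the 13 seed and embryo markers summed to 2.52 FPKM in hda9 hos15 and 0.95 in hos15. Of them, 9 and 5 were above 0 in the same order. The sums were 0.92 in hda9, 2.41 in pwr and 2.46 in Col, so hda9 hos15 stood near Col. OLEO2 had the largest value in hda9 hos15, at 1.29 FPKM, beside 0.202 in hos15. SESA4 (0.139 in hda9 hos15, 0.223 in hos15) and ABI3 (0.0999 and 0.183 in the same order) went the other way. The part of these markers in the result was not tested. RTFL13, a small protein of the ROTUNDIFOLIA-like family that restrains organ growth, was at 28.3 in hda9 hos15 and 11.3 in hos15, beside 14.4 in hda9, 18.8 in pwr and 19.4 in Col (1.25). MAKR1, a membrane-associated kinase regulator, was at 27.1 in hda9 hos15 and 12.8 in hos15, beside 15.8 in hda9, 20.1 in pwr and 12.97 in Col (1.03). The adjacent genes CLE5 (6.19 in hda9 hos15, 2.34 in hos15, 1.11) and CLE7 (2.57 and 0.753 in the same order, 1.02) encode peptides of the CLAVATA3/ESR-related family. That family, looked at after the pair was seen, had 21 of 23 compared genes above 0, against 7913 of all 18912 rows. Its median was 0.46, with 2 higher and 1 lower, where 0.296% of all rows were higher and 0.994% lower.

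Several lists lay above 0 without a called member, where 7913 of the 18912 rows were above 0. Of 13 cold-response genes 10 were above 0, with a median of 0.31. KIN2, a small cold- and abscisic-acid-inducible protein, was at 2187 FPKM in hda9 hos15 and 1310.3 in hos15, beside 1397 in hda9, 1931 in pwr and 401 in Col (0.74). COR15A, a chloroplast membrane protectant that is counted among reported HOS15 targets, was at 159 in hda9 hos15 and 96.6 in hos15, beside 81.1 in hda9, 96.5 in pwr and 50.7 in Col (0.72). DREB1A (CBF3), an activator of cold genes, was at 5.37 in hda9 hos15 and 2.24 in hos15 (0.97), and its gene overlaps one on the opposite strand. Of 13 flavonoid and anthocyanin genes 12 were above 0 (median 0.24), led by the late-pathway genes UF3GT (2.58 in hda9 hos15, 1.11 in hos15, 0.76) and LDOX (2.98 and 1.48 in the same order, 0.68). Of 23 light-harvesting and photosystem genes 21 were above 0 (median 0.16), with PSAG, a photosystem I subunit, furthest at 0.45.

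**Figure D3:**
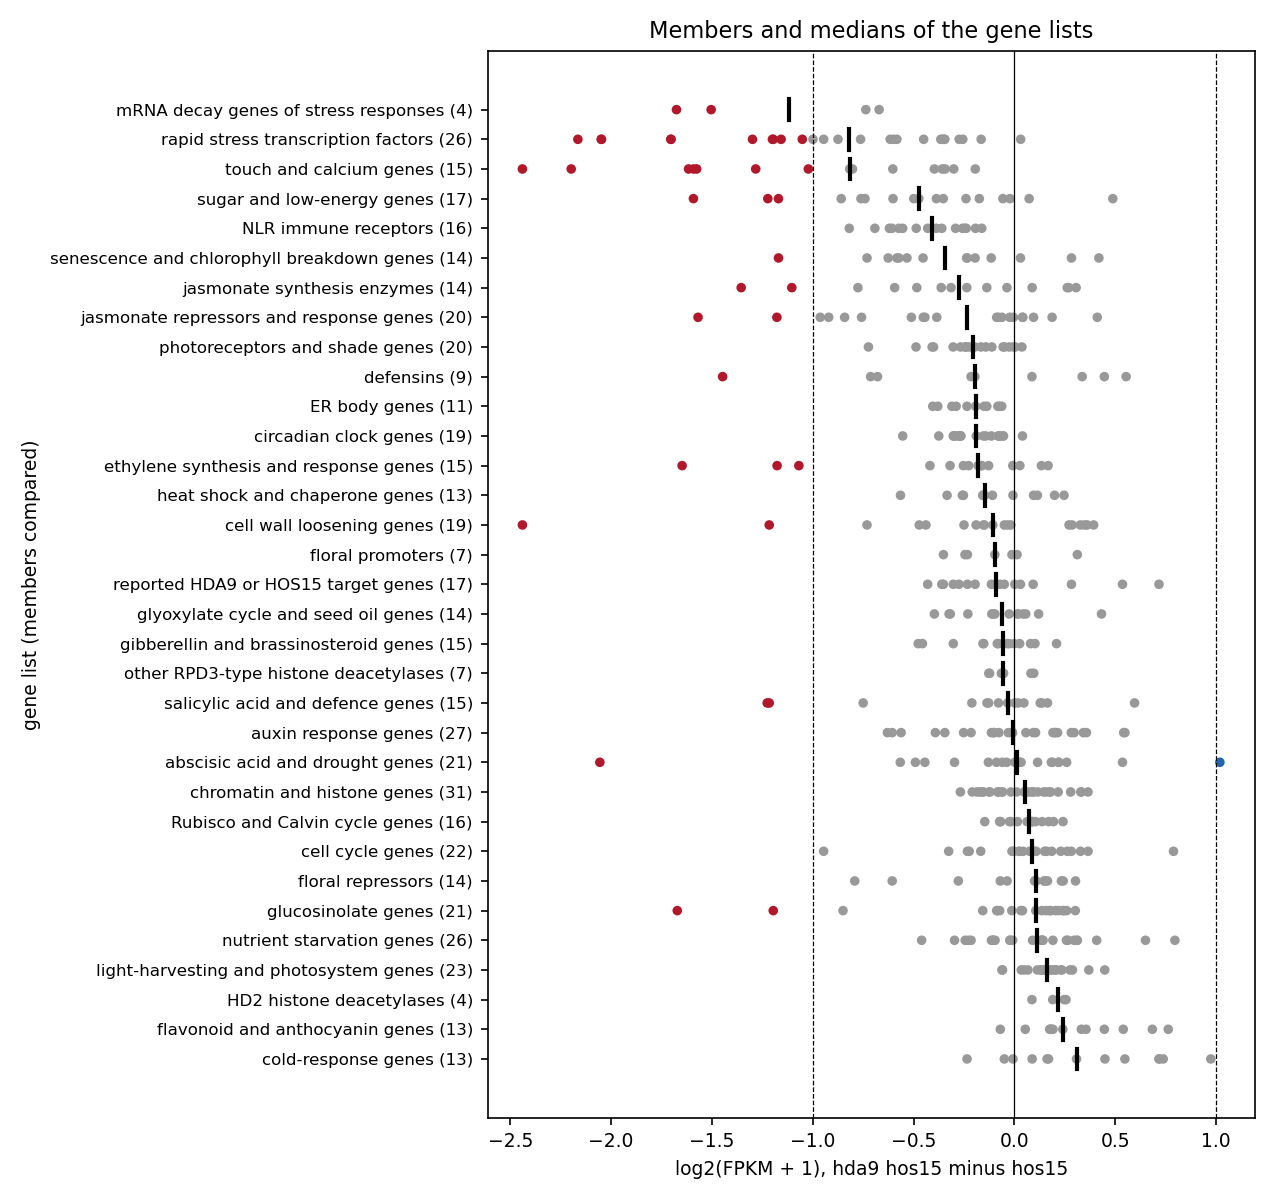
Log2(FPKM + 1) of hda9 hos15 minus hos15 for the compared members of 33 gene lists, 1 point per gene and 1 row per list, with the median as a black bar. Red points are at least 2-fold lower and the blue point, NCED3, at least 2-fold higher; the mRNA decay, rapid stress transcription factor and touch and calcium lists have medians at or below -0.82, and the cold-response list lies furthest to the right at 0.31.

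The remaining lists held no called gene. All 17 reported HDA9 or HOS15 targets were under 2-fold, with a median of -0.09. Clock genes were below 0 in 18 of 19 cases (median -0.19), with PRR7, a morning-phased repressor, furthest at -0.55. Photoreceptor and shade genes were below 0 in 18 of 20 cases (median -0.20), and endoplasmic reticulum body genes, which store defence glucosidases, in all 11 (median -0.19). Medians lay between -0.15 and 0.11 for heat shock, auxin, gibberellin and brassinosteroid, floral promoter, floral repressor, Calvin cycle, glyoxylate cycle, nutrient starvation, chromatin and cell cycle genes. Over all 34 lists, which overlap, 518 distinct genes were compared, of which 35 were lower and 1 was higher. Of all rows, 0.994% were lower and 0.296% higher.

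The difference hda9 minus Col uses none of the values in hda9 hos15 minus hos15. Loss of HDA9 could therefore be set side by side in plants with and without the hos15-2 allele. HOS15 transcript was itself lower in hda9 (4.37 FPKM) than in Col (16.2). That log2 difference was -1.68, and -0.52 after adjustment for transcript sequence. Of the 188 genes lower in hda9 hos15 than in hos15, 84 (44.7%) were at least 2-fold higher in hda9 than in Col, where 1.99% of all rows were, and 23 (12.2%) were at least 2-fold lower, where 4.49% of all rows were. The 84 make up 22.3% of the 377 genes higher in hda9. The median log2 value of hda9 minus Col over the 188 was 0.76. Of the 141 lower protein-coding genes of at least 300 nt, 78 (55.3%) were higher in hda9 and the median was 1.03. Of the 56 genes higher in hda9 hos15 than in hos15, 18 (32.1%) were higher in hda9 and 7 (12.5%) lower. The 84 genes therefore differed in opposite directions in the 2 backgrounds, and no test of that contrast was possible on single values.

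**Figure D4:**
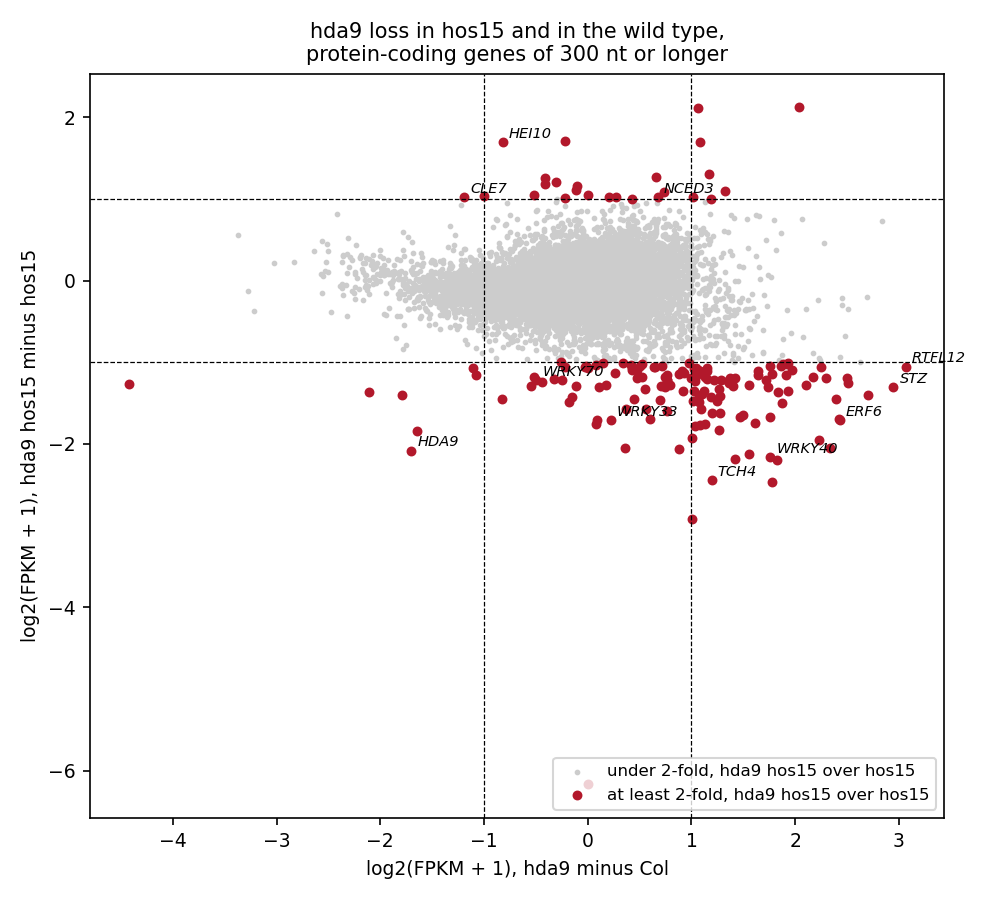
Log2(FPKM + 1) of hda9 minus Col on the horizontal axis and of hda9 hos15 minus hos15 on the vertical axis, for protein-coding genes of at least 300 nt. Dashed lines mark 2-fold; of the 141 red points at the bottom, 78 lie to the right of the 2-fold line for hda9 over Col, among them STZ, ERF6 and TCH4, while HDA9 itself lies to the lower left.

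RTFL12, a ROTUNDIFOLIA-like gene, had opposite differences in the 2 backgrounds. It was at 5.26 FPKM in hda9 hos15 and 12.0 in hos15 (-1.05), and at 27.0 in hda9 and 2.35 in Col (3.06). AT2G22880, which encodes a VQ-motif protein, a family that binds WRKY factors, was at 19.3 in hda9 hos15 and 52.7 in hos15 (-1.40), and at 97.4 in hda9 and 14.1 in Col (2.70). STZ had -1.30 in the first difference and 2.95 in the second. Genes that moved the same way in both backgrounds beyond 2-fold were mainly short RNAs, such as the precursor MIR169a, at 17.97 in hda9 hos15 and 1.51 in hos15, and at 11.2 in hda9 and 1.05 in Col; it overlaps another gene on its strand. Across all 18912 rows the 2 differences had a Pearson r of 0.08 and a Spearman rho of 0.20, a description across genes that share their libraries and sequence properties. After adjustment for transcript sequence the values over 18079 genes were -0.10 and 0.03.

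The levels of all 5 genotypes place the falling genes. Median FPKM over the 188 was 3.18 in hda9 hos15, 13.55 in hos15, 10.08 in hda9, 7.15 in pwr and 7.05 in Col. The genes were chosen for a low double-mutant and a high hos15 value. The other 3 genotypes entered the choice only through the filter of 1 FPKM in 2 or more of the 5 genotypes. In their medians hda9 was above Col and pwr was close to Col. Over the 56 higher genes the medians were 8.38 in hda9 hos15, 1.65 in hos15, 3.80 in hda9, 4.2 in pwr and 3.21 in Col. Of the 188 lower genes, 36 were at least 2-fold higher in pwr than in Col, where 1.94% of all rows were. Another 19 were at least 2-fold lower, where 7.55% of all rows were. The median difference was 0.30.

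Transcript sequence was followed because purine-rich transcripts were lower in hda9 than in Col. Over 18079 protein-coding genes of at least 300 nt, the Spearman rho with the purine share of the transcript was -0.22 for hda9 hos15 minus hos15 and -0.47 for hda9 minus Col. Sequence features together took 7.81% of the variance across genes in the double mutant against hos15 and 34.8% in hda9 against Col. In the 230 genes with over 58% purine the median was 0.02 for hda9 hos15 minus hos15 and -1.14 for hda9 minus Col. At or below 46% purine (1239 genes) the medians were 0.11 and 0.31 in the same order. The purine-rich transcripts that were low in hda9 thus differed little between the double mutant and hos15. The 785 protein-coding genes of at least 300 nt that were at least 2-fold lower in hda9 than in Col had a median purine share of 55.2%. Their median against Col was also below 0 in hos15 (-0.985), pwr (-1.65) and hda9 hos15 (-1.10). These differences share the Col value by which the genes were chosen. The 141 lower genes had a median purine share of 50.2%, close to that of all rows (50.5%), and after adjustment for sequence 142 genes were lower, 131 of them among the 141.

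**Figure D5:**
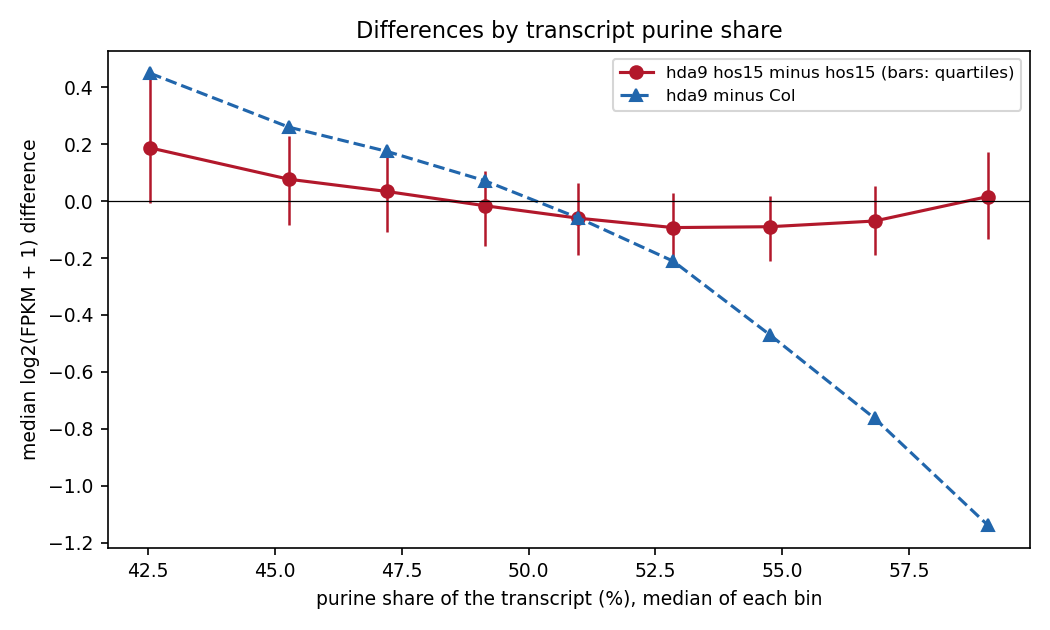
Median log2(FPKM + 1) difference of protein-coding genes of at least 300 nt in 9 bins of the purine share of the transcript (percent, horizontal axis), for hda9 hos15 minus hos15 (circles, bars from the first to the third quartile across genes) and hda9 minus Col (triangles). The triangles go down to -1.14 in the bin above 58% purine, where the circle is at 0.02.

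The largest differences of any row belonged to short RNAs listed at 0 in one group, for which no fold is given. The snoRNA AT3G47348 was listed at 0 in hda9 hos15 and at 209.6 FPKM in hos15, and the tRNA genes AT2G07763, AT3G05525 and AT1G28720 were likewise listed at 0 in hda9 hos15 and at 126, 100.01 and 78.3 in hos15. In the other direction the snoRNAs AT3G47342 and AT2G35742 were at 70.3 and 57.4 in hda9 hos15 and listed at 0 in hos15, as were AT3G25221, a short uncharacterized gene (28.0), and the RNA gene AT2G24592 (26.5). The 271 rows of organelle genes all have 0 in each genotype, so a 0 in this table can be a failed estimate. Among the 27 compared rows of the chromosome 2 region AT2G07600 to AT2G07799, which carries nuclear copies of mitochondrial genes, 3 were higher and 5 lower. Of all rows, 0.296% were higher and 0.994% lower. Values of genes with a near-identical copy are uncertain, because nothing here records how reads were divided between copies. The called genes were spread over all chromosomes, with 0.714% to 1.16% of the compared rows lower on each of the 5.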

How the data were processed

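Per the labels, mRNA libraries of 2 seedling samples per genotype were made with the Illumina TruSeq Stranded mRNA kit. The submitters' processing notes name TopHat2, Cufflinks and Cuffdiff as tools and TAIR10 as the build. Tool versions and strand settings were not given in the sources used here. Genes that overlap another on either strand are therefore uncertain. The authors deposited FPKM, 1 value per gene and genotype; the way libraries were merged was likewise not given, and the wild-type column, which names no library, was taken as Col. Nothing in the labels says whether libraries came from separate cultures, and no depth or counts can be had.

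Differences of log2(FPKM + 1) were computed in Python 3.11.15 with pandas 2.3.3, numpy 2.4.6 and scipy 1.17.1, on rows that reached 1 FPKM in 2 or more of 5 genotypes. Symbols, transcripts and promoter windows came from RefSeq on TAIR10.1 by locus code. Sequence-adjusted values are residuals on additive splines (5 knots) of purine share, highest purine share in 100 nt, log2 length and GC share. Named genes were HDA9, HOS15 and PWR, the 15 largest rises and 15 largest falls of protein-coding genes with a symbol and FPKM of at least 2 in the higher group, the 4 largest each way of any row, called list members (or up to 2 of a list with none), and the 6 called genes with the largest opposite and the 6 with the largest same-direction hda9 minus Col value. CAF1b, CZF1, TCH2, ERF104, AT1G50040 and the AT1G72900 neighbours lie outside that rule and were chosen after their values were seen. The 34 gene lists, the genes on them and the promoter words were chosen with earlier results of these data known. Of 634 list names 629 matched a locus and 541 were compared. The procedures were tested on simulated data. Alternatives in pseudocount, filter, scaling, gene class, sequence adjustment and fold rule were computed.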

Additional observations from a re-analysis of the deposited data

Results flagged for a closer look

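Loss of HDA9 went with opposite differences past 2-fold in the 2 backgrounds for 30 of the 112 named genes, with all 4 values above 0. Of these, 29 were lower in hda9 hos15 than in hos15 and higher in hda9 than in Col. Genes were named for large falls, list calls and large opposite values, so the count follows in part from that choice. Of all 18912 rows, those listed at 0 included, 84 went this way and 7 were higher in hda9 hos15 than in hos15 and lower in hda9 than in Col. The values below are the first log2 difference less the second, and with 1 value per genotype the difference between backgrounds was not tested. Among transcriptional regulators they were AT5G51190 (-4.39), STZ (-4.25), ERF6 (-4.13), WRKY40 (-3.92), DREB26 (-3.61), ERF11 (-2.80), MYB51 (-2.56) and CBP60G (-2.26). Among touch, calcium and cell wall genes they were PHI-1 (-4.02), TCH4 (-3.63), XTR6 (-2.89), CML38 (-2.84) and TCH3 (-2.67), and among genes of mRNA decay SZF1 (-3.43) and CAF1a (-3.38). Hormone and defence genes gave PDF1.2 (-3.84), ACS11 (-3.14), LOX4 (-2.48), ACS7 (-2.31), ACS6 (-2.22), CYP94C1 (-2.18) and NATA1 (-2.20). NATA1 reached 1 FPKM only in hos15 (1.34) and hda9 (1.55). It thus passed the filter through the same values that are high in its opposite pattern. The others were DIC2 (-4.12), CYP81F2 (-3.14), ASN1 (-2.94), SEN1 (-2.21), RTFL12 (-4.12), AT2G22880 (-4.11) and AT2G32200 (-3.76). CLE7 was the 1 gene that was higher in hda9 hos15 than in hos15 and lower in hda9 than in Col (2.21).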

How the results depend on the processing

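No paired analysis was possible because the table has 1 column per genotype; the replicate block and the fits without one replicate were for the same reason not run. The number of lower genes (188) was 331 with a pseudocount of 0.1, 80 with 5, 621 under a 1.5-fold rule and 60 under a 3-fold rule. The number of higher genes (56) was 104 and 20 with those pseudocounts, 252 and 22 under those rules, 34 at a mean FPKM of at least 5, 24 for protein-coding genes of at least 300 nt and 19 after sequence adjustment. Lower calls outnumbered higher ones in every setting; they were 77.0% of calls as reported, 85.5% in protein-coding genes of at least 300 nt and 88.2% after sequence adjustment. The share of lower genes that were higher in hda9 over Col was 28.1% when columns were brought to a common sum without AT2G01021, an alternative chosen after seeing the data that shifts the median of all genes to -0.11, and 32.5% to 55.3% in the other settings.

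List medians kept their sign apart from those near 0: salicylic acid genes turned to 0.005 with median-ratio scaling, 0.058 with quantile normalization and 0.022 after sequence adjustment, and abscisic acid genes to -0.049 at a common sum. Medians that moved by over 1.5 times were those of touch and calcium genes (-1.25 with a pseudocount of 0.1, -1.28 at a mean FPKM of at least 5), cold-response genes (0.20 after sequence adjustment), photosystem genes (0.02 with quantile normalization, 0.055 after sequence adjustment), defensins (-0.054 at a mean FPKM of at least 5), jasmonate response genes (-0.12 with a pseudocount of 5, -0.062 at a mean FPKM of at least 5) and senescence genes (-0.19 and -0.21 in the same order). The cause was not tested. No named gene changed sign where it was called; of the 64 named genes called, 28 were under 2-fold with a pseudocount of 5, and of those with a sequence-adjusted value 4 of 8 higher and 2 of 41 lower genes were under it after that adjustment. Without replicate values or depth, the precision of weakly expressed genes is unknown.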

Other observations

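Cytosolic and organellar ribosomal protein genes, a class taken from the annotated products after values were seen, lay slightly above the other genes. In hda9 hos15 minus hos15, 250 of 309 were above 0, against 7913 of all 18912 rows. Their median was 0.12 and 1 was called higher, where 0.296% of all rows were higher. The other end of the same scale held 5 cysteine-rich transmembrane genes, of which 3 were lower, where 0.994% of all rows were lower. Their median was -1.15, and 1.91 in hda9 minus Col. That class, the phosphate-responsive and EXORDIUM-like class and the expansin class were likewise taken after values were seen. Of 7 phosphate-responsive and EXORDIUM-like genes, 6 were below 0 and 2, PHI-1 and EXO, were lower. Of 21 expansin genes, 17 were above 0 with a median of 0.19, and the 1 called, EXLA1, was lower (-1.05, 47.2 FPKM in hda9 hos15 and 98.6 in hos15). Of the 50 compared rows nearest to HDA9 in order of locus code, 3 were lower and none higher, where 0.994% of all rows were lower. They were CAF1a (-1.50), AT3G44630, a disease resistance gene (-1.06), and AT3G44704, an uncharacterized gene of 156 nt. AT3G44704 was listed at 0 in hda9 hos15 and at 3.21 FPKM in hos15. Iron-deficiency regulators BHLH100 (56.2 FPKM in hda9 hos15, 31.9 in hos15) and bHLH38 (23.1 and 14.3 in the same order) were higher by less than 2-fold (0.80 and 0.65). The cyclin-dependent kinase inhibitor gene SIM was at 49.5 FPKM in hda9 hos15 and 28.2 in hos15 (0.79).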
